A study of Mus musculus with 40 samples.

Results

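The methylation of CpG cytosines was examined at 10 genes of fatty acid synthesis and oxidation, Srebf1, Mlxipl, Acly, Me1, Acaca, Fasn, Elovl6, Scd1, Acacb and Cpt1a, in mouse liver. Every CpG of the deposited table that lay within 5000 bp of an annotated transcription start of one of these genes was taken, which gave 365 of the 400298 CpGs listed. All 10 genes had listed CpGs, from 14 in Acly to 85 in Fasn. Reduced representation bisulfite sequencing (RRBS) had been carried out on livers of 40 male C57BL/6 mice (C57BL/6J in the study's methods), 9 weeks old, with 10 mice in each of 4 groups. Dams were fed a low-fat, high-carbohydrate (LF) or a high-fat, low-carbohydrate (HF) diet in which coconut oil was the main fat, and their sons received either of these diets once weaned. The groups were therefore LF and HF fed offspring of LF fed dams, and LF and HF fed offspring of HF fed dams. The males of a cage were divided between the post-weaning diets. The labels do not name litters, so littermates could not be told apart and the p-values treat each mouse as independent. In RRBS the enzyme MspI cuts DNA at CCGG, fragments are selected by size, and bisulfite turns unmethylated cytosines into bases that are read as T. The method thus reads CpGs close to CCGG sites in CpG-rich DNA, and the percent methylation is the share of reads that still carry C. Whole liver holds several cell types, and a change in the methylation of one cell type could not be told apart from a change in the mix of cells.

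Fatty acid synthesis in the liver turns surplus carbohydrate into fat. Acly makes cytosolic acetyl-CoA from citrate, Acaca carboxylates it to malonyl-CoA, Fasn builds palmitate from it with NADPH that Me1 helps to supply, and Elovl6 and Scd1 lengthen and desaturate the product. Srebf1 and Mlxipl encode the insulin-responsive and carbohydrate-responsive transcription factors (SREBP-1 and ChREBP) that switch these genes on. Acacb makes malonyl-CoA at the mitochondrion, where it inhibits Cpt1a, the enzyme that admits long-chain fatty acids to oxidation. Methylation of CpGs at a promoter generally goes with a silent gene, whereas promoters of active genes are mostly unmethylated and the bodies of genes mostly methylated.

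The stretches below are from the mm9 reference, 5′ to 3′ on the strand of the gene, and capitals mark each CpG with a listed cytosine on at least 1 strand. For 7 of the genes they show the nearest run of listed CpGs that lies wholly upstream of a protein-coding start, since the low levels described next were read there. In Fasn a closer run spans the start itself, and of the run shown only the 160 bases at its end towards the start are printed. They held between 3 and 14 listed CpGs each, and none overlapped an annotated UTR.
Srebf1, chr11:60024084-60024214, strand -: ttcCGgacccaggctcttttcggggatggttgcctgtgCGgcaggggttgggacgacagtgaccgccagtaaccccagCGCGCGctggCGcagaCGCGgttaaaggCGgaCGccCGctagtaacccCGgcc
Fasn, chr11:120685992-120686151, strand -: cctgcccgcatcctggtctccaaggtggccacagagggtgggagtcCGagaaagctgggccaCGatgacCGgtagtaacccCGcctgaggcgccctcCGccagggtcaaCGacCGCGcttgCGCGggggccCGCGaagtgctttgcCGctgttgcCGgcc
Acaca, chr11:83942781-83942836, strand +: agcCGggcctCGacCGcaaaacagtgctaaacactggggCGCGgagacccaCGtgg
Acly, chr11:100389334-100389429, strand -: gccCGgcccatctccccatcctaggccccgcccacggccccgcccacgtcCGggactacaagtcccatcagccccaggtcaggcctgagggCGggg
Me1, chr9:86589951-86590005, strand -: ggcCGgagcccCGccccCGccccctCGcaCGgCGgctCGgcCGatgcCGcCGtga
Scd1, chr19:44482821-44482897, strand -: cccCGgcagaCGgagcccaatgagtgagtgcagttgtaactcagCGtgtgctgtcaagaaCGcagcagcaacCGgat
Cpt1a, chr19:3321735-3321862, strand +: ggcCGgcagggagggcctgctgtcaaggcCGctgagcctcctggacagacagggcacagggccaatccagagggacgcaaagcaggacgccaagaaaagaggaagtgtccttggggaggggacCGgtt
Acacb is shown by a pair of stretches, since it departed from the other genes: first the intronic pair upstream of the third coding start, at intermediate levels, and then the most methylated run, in its first intron.
Acacb, chr5:114624128-114624266, strand +: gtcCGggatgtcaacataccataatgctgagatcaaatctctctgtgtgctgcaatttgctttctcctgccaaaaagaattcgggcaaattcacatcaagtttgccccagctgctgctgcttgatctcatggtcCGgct
Acacb, chr5:114599408-114599520, strand +: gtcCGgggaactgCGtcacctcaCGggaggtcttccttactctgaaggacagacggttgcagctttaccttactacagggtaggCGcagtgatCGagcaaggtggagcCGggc

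Most listed CpGs of these genes were nearly unmethylated. Of the 365 CpGs, 297 had a mean below 10% over mice, 199 of them below 1%, and all 297 lay within 2500 bp of an annotated start. A further 37 CpGs had a mean of 10% to 80%, and 31 had a mean of 80% or more. Of the 68 CpGs at 10% or more, 42 belonged to Acacb. Its window was the widest, 50005 bp beside 10001 bp in Scd1, Elovl6 and Cpt1a. The Acacb runs from 114645351 to 114702238 lay 19436 to 76323 bp from the nearest coding start. They were taken because of internal starts of transcripts not annotated as coding. In the other genes 293 of 319 CpGs were below 10%. At 27 CpGs no methylated read was seen in any mouse. The 601 to 1096 reads over those CpGs allow a level of up to 0.274% to 0.499% (3 reads of the total, for counting error only, since reads from PCR are not independent molecules). The plot of methylation by distance shows how the low and high CpGs were placed around the starts.

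**Figure D1:**
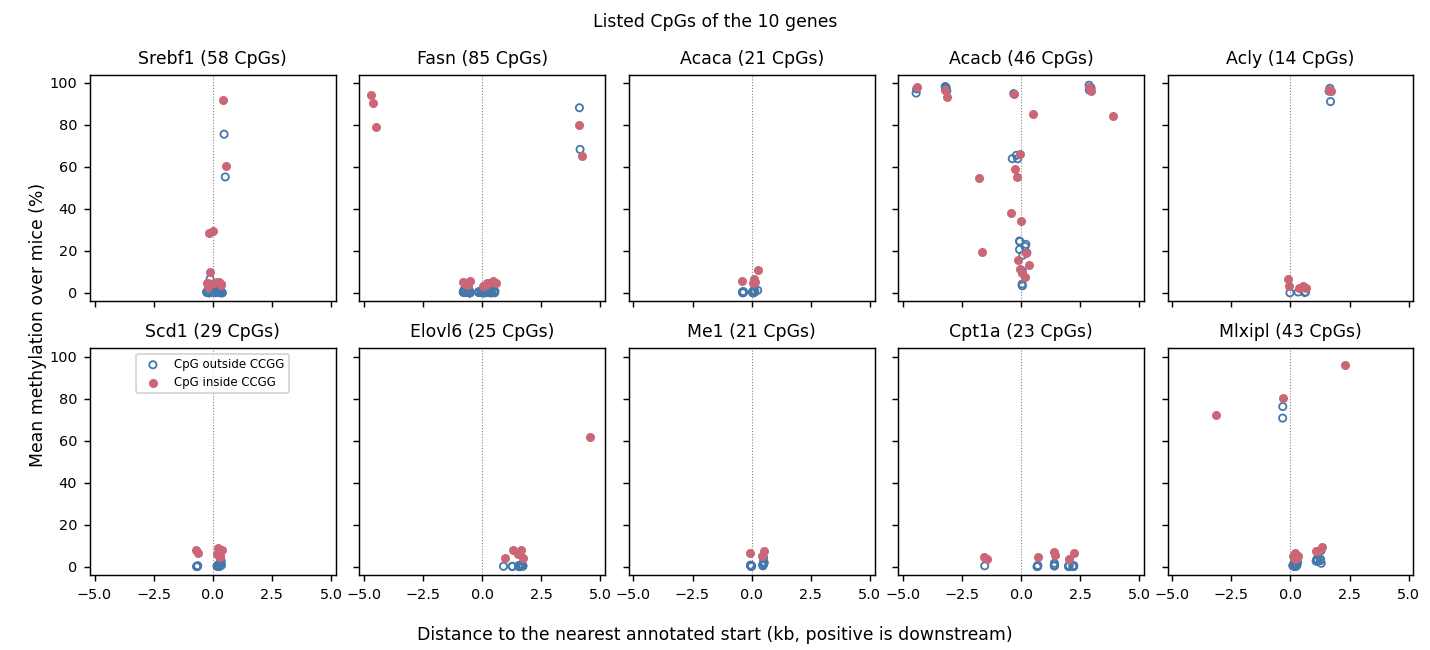
Mean methylation over mice (%) of each listed CpG against its distance to the nearest annotated start of the gene (kb), one panel per gene; filled points are CpGs inside CCGG and open points CpGs outside it. Scd1, Me1 and Cpt1a had no CpG above 10%, whereas Acacb, with the widest window (50005 bp), had 42 CpGs at 10% or more.

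Depth limited the precision of single CpGs. Read counts summed over all listed CpGs ranged from 2969907 to 23345592 per mouse, and over the 365 CpGs from 2047 to 20729. The table gives a value only at 10 reads or more, where 1 read moves the level by 10 points. Between 163 and 365 of the 365 CpGs had a value in a mouse (median 353.5). In 3 mice fed HF, 1 born from an LF fed dam and the other two from HF fed dams, fewer than 200 had one. With values in at least 36 of 40 mice, 229 CpGs were tested. The remaining 136 had values in 33 to 35 mice and are described only. Within groups, the root mean square deviation between mice at a tested CpG ranged from 3.27 points in Cpt1a to 8.05 points in Acacb. For the same read numbers, binomial counting error alone would give 2.86 points in Cpt1a and 6.95 points in Acacb. As a check of the tissue, mean promoter methylation (from 1000 bp before to 500 bp after a start) was 86.6% for Itgam, a gene of myeloid cells. The 2 markers of stellate and endothelial cells with such a value were lower, Lrat at 2.97% and Des at 12.5%. Promoters of markers of other cell types were thus not all methylated. No hepatocyte marker had 3 tested CpGs in that window, so the hepatocyte label could not be checked in this way.

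Srebf1 (chr11:60012591-60036083, minus strand) had 58 listed CpGs, 35 of them tested. Within 1000 bp of its coding starts, 37 CpGs had a mean of 1.30% ± 0.542 (SD between mice, n = 40). This included the region 54 to 408 bp inside the start at 60034106 and the stretch shown above, upstream of the start at 60023967. In that stretch the levels of 12 CpGs ran from 0% to 4.70%, and none of the 12 was tested. The listed CpG nearest a coding start, 54 bp downstream, stood at 4.74% ± 5.47. Methylation was higher further inside the gene. The CpGs at 60017352, in a coding exon, and 60017517, in an intron, both close to internal starts of short transcripts, stood at 29.6% and 28.4%. At positions 60013987 to 60014092, also next to such starts, 4 CpGs ranged from 55.2% to 92.0%. All 4 were tested and enter the gene mean. Over its tested CpGs the mean level of Srebf1 was 9.49% ± 0.926 (SD, n = 10) in offspring of LF fed dams and fed LF and 9.72% ± 0.986 in those fed HF. In offspring of HF fed dams it was 9.82% ± 0.810 on LF and 9.27% ± 0.806 on HF. The lowest mouse of all was at 7.95% and the highest at 11.3%, and the 4 groups overlapped.

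Mlxipl (chr5:135582761-135614254, plus strand) had 43 listed CpGs. At 102 to 306 bp inside the start at 135582793, 25 CpGs averaged 1.35%, and at 1080 to 1313 bp, in an intron, 13 CpGs averaged 4.39%. In coding sequence 305 to 333 bp upstream of the short-transcript start at 135609480, 3 CpGs stood at 70.7% to 80.2%, and the intronic CpG at 135611819 reached 96.2% ± 4.51 (n = 40), the highest of the gene. The gene mean over tested CpGs was 8.82% ± 0.796 and 9.31% ± 1.09 in offspring of LF fed dams and fed LF or HF. It was 8.90% ± 1.09 and 9.21% ± 0.809 in those born from HF fed dams, in the same order.

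Acly (chr11:100337667-100389314, minus strand) had 14 listed CpGs. The CpG nearest its start, 24 bp upstream, had no methylated read in any mouse, and the 9 CpGs within 1000 bp of a coding start averaged 2.07% ± 1.21. The other 5, next to an internal start of a transcript not annotated as coding, lay between 91.1% and 97.4%. The mean of 44.9% ± 1.36 over the 11 tested CpGs is thus an average of promoter and gene body, and with starts of protein-coding transcripts alone it was 2.63%. Me1 (chr9:86474970-86589947, minus strand) had 21 listed CpGs, of which 10 lay 8 to 55 bp upstream of the start, inside the gene A330041J22Rik, and averaged 0.937%. The CpG 8 bp upstream of the start stood at 0.208% ± 1.26. The highest Me1 CpG, 532 bp downstream in an intron, reached 7.62% ± 6.46. Both suppliers of the pathway were therefore close to unmethylated at their main starts in all 4 groups. The gene mean of Me1 lay between 1.72% and 2.01% in the 4 groups, with SDs of 0.725 to 0.984.

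Acaca (chr11:83943174-84215153, plus strand) had 21 listed CpGs, all tested. Upstream of its first start, inside Tada2a, the 6 CpGs of the stretch shown above averaged 1.18%, with the highest at 5.68%. In the 5′ UTR, 48 to 263 bp downstream of that start, 9 CpGs averaged 2.81%, and the most methylated, at 263 bp, stood at 11.1% ± 7.26 (n = 37). At the start at 83993375, 6 CpGs averaged 1.27%. In offspring of LF fed dams the gene mean was 1.82% ± 1.07 on LF and 1.499% ± 0.722 on HF. In offspring of HF fed dams it was 2.36% ± 0.647 on LF and 1.90% ± 0.721 on HF. Fasn (chr11:120667254-120685492, minus strand) had 85 listed CpGs, the most of the 10 genes. Within 1000 bp of its coding start 78 CpGs averaged 0.971% ± 0.328, and the CpG nearest the start, 31 bp upstream, stood at 0.0722% ± 0.415. Only the flanks were methylated: 3 CpGs 4475 to 4713 bp upstream, inside Ccdc57, lay between 78.9% and 94.1%, and 4 CpGs 4106 to 4208 bp downstream between 64.95% and 88.2%.

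Elovl6 (chr3:129235304-129341413, plus strand) had 25 listed CpGs, all in its first 5000 bp of transcript. Of these, 24 were below 10%, and the CpG nearest the start, 902 bp downstream, stood at 0.123% ± 0.747. A single intronic CpG 4545 bp downstream stood at 61.8% ± 13.1 (n = 38). Scd1 (chr19:44468941-44482199, minus strand) had 29 listed CpGs, none above 9.06%. Those 158 to 385 bp downstream of the start averaged 2.23% and those 625 to 695 bp upstream 2.50%. The latter, 6 CpGs in the stretch shown above, were not tested. Cpt1a (chr19:3323301-3385732, plus strand), the oxidation gene of the set, had 23 listed CpGs with levels of 0% to 6.82%. The 4 runs between 1563 bp upstream and 2236 bp downstream averaged 2.88%, 1.25%, 2.60% and 1.15%. Over tested CpGs the gene means by group lay between 4.81% and 6.22% for Elovl6, 2.06% and 2.69% for Scd1, and 1.76% and 2.03% for Cpt1a. The plot of gene means shows that the mice of the 4 groups overlapped at each of these genes.

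**Figure D2:**
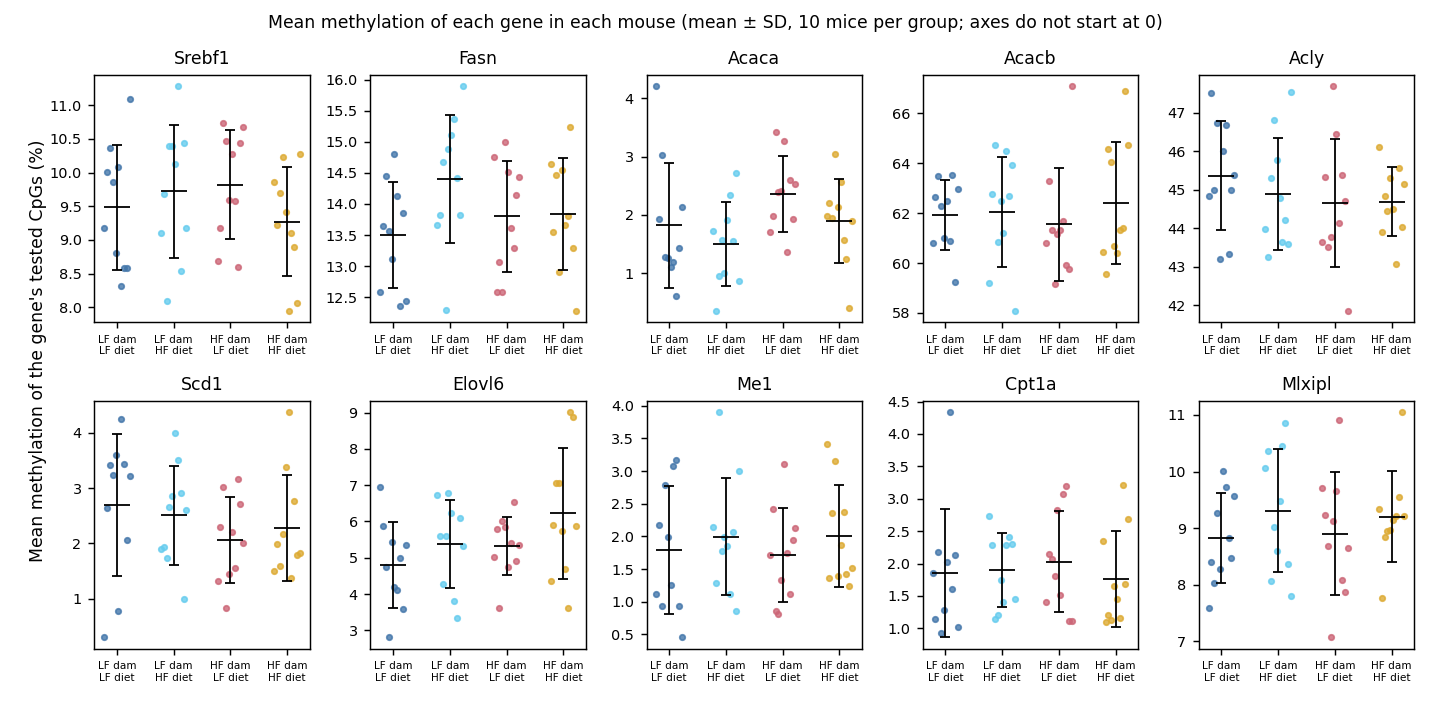
Mean methylation (%) of the tested CpGs of each gene in each mouse, by group; points are mice, and bars give the mean ± SD of 10 mice. The groups overlapped in all 10 genes. Fasn in offspring of LF fed dams (13.5% on LF, 14.4% on HF) had the only unadjusted p below 0.05 among the pair-wise comparisons. The Fasn mean takes in its methylated flanks.

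Acacb (chr5:114596544-114700770, plus strand) differed in level from the other genes. Its 11 CpGs within 1000 bp of a coding start averaged 13.8% ± 4.31 (SD between mice, n = 40). The corresponding means of Srebf1, Fasn, Acaca, Acly, Scd1, Elovl6, Me1 and Cpt1a lay between 0.971% and 2.28%, and neighbours in that range were within their SDs of 0.328 to 2.27. Mlxipl stood at 9.30% ± 0.930 by this measure because its short-transcript start is counted. At the first start of Acacb, CpGs 200 and 245 bp downstream, in the 5′ UTR, stood at 18.9% and 19.1%. At the third, 8 CpGs of the 5′ UTR 34 to 203 bp downstream ranged from 3.33% to 23.1%. The run in the first intron shown above, 2867 to 2973 bp downstream, lay between 96.0% and 98.9%. Runs in coding exons at 114645351 to 114645400 and 114695128 to 114695220 averaged 96.7% and 96.8%.

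Levels in Acacb changed over short distances. The CpG 1784 bp upstream of the third start stood at 54.7% ± 13.8, and its neighbour 132 bp on, at 19.3% ± 10.3. The former was the higher in 34 of 34 mice with both values. Around the start of a non-coding transcript near the end of the gene, the CpG 303 bp upstream stood at 94.8% ± 4.82 and that 113 bp upstream at 15.7% ± 9.29. There, too, the order held in every mouse with both values (32 of 32), and the lowest mouse at the first CpG (81.8%) was above the highest at the second (35.7%). These pairs were chosen after their values were seen. The plot of Acacb by group shows the same sequence of high and low runs in the 4 groups.

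**Figure D3:**
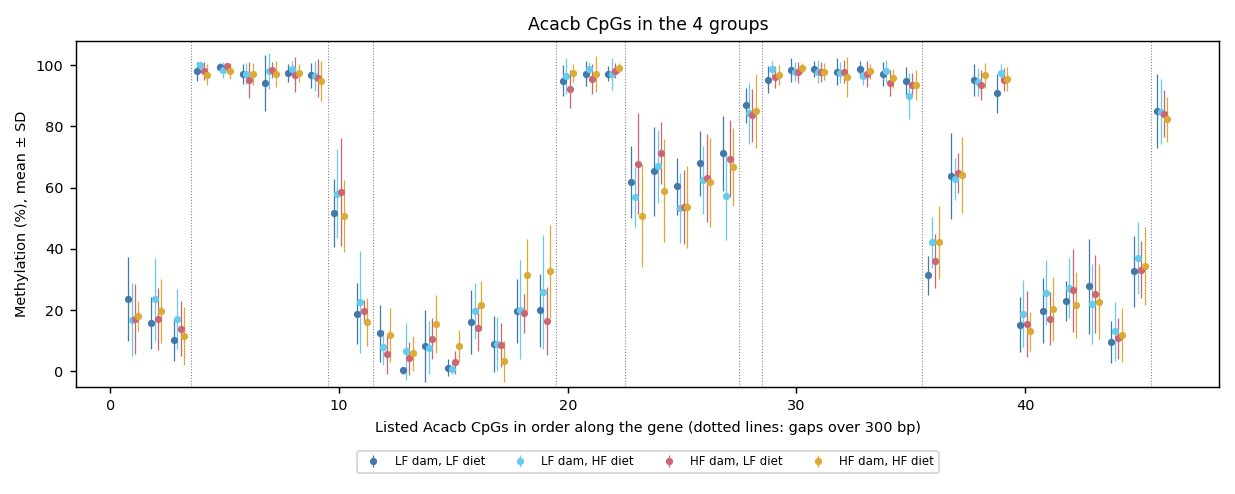
Methylation (%) of the 46 listed Acacb CpGs in order along the gene, mean ± SD of the mice with a value in each of the 4 groups; dotted lines mark gaps over 300 bp. The runs that averaged 97.4% and 12.3% over mice stood apart in each group.

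Among weakly methylated CpGs, those inside CCGG were higher than those outside it. Over CpGs of the 10 genes with a mean below 15%, the 66 inside CCGG averaged 5.74% ± 0.705 (SD, n = 40 mice) and the 236 outside it 0.717% ± 0.199. The mice ranged from 4.11% to 7.68% inside and from 0.338% to 1.12% outside, so the ranges did not overlap and CpGs inside were the higher in 40 of 40 mice. Median read numbers were 21 and 20. In the stretches printed above these are the capitals in cCGg, and in the first 7 each of them was higher than every other listed CpG of its stretch. The same split was present over all tested CpGs below 15% (6.15% for 35027 inside and 1.32% for 111372 outside), so it was not particular to these genes. At 80% or more the order was the other way round in these genes, with 92.8% for 15 CpGs inside and 96.1% for 16 outside, beside 91.1% and 91.8% over all tested CpGs at that level. This pattern was noticed in the data, its cause was not tested, and gene means without CpGs inside CCGG are given in the closing section. It was present in each diet group: levels inside CCGG were 5.94% ± 0.874 and 5.95% ± 0.550 in offspring of LF fed dams and fed LF or HF, and 5.75% ± 0.564 and 5.32% ± 0.691 in those born from HF fed dams. By gene it was least clear in Acacb, where CpGs inside were the higher in 26 of 37 mice (11.1% inside, 6.01% outside). Over all Acacb CpGs within 1000 bp of a coding start, those inside averaged 12.4% and those outside 14.3%.

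**Figure D4:**
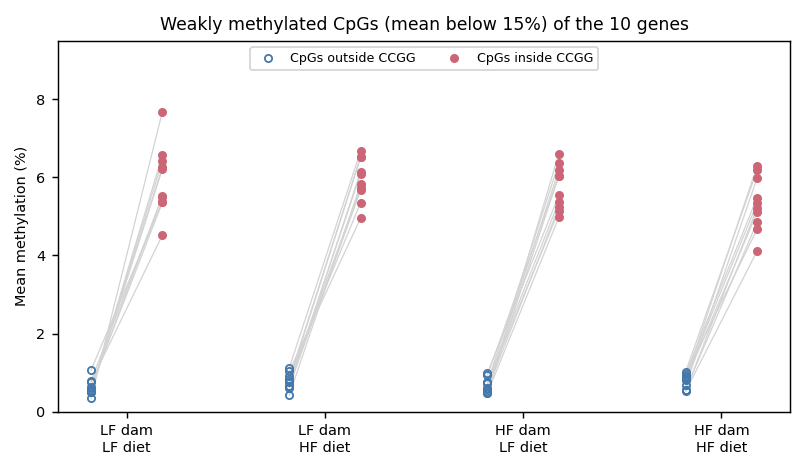
Mean methylation (%) per mouse over CpGs of the 10 genes with a mean below 15%, for CpGs outside CCGG (open) and inside it (filled), by group; lines join the values of a mouse. Every mouse was higher inside CCGG, between 4.11% and 7.68%.

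The effect of the maternal diet was first examined in animals fed HF, comparing those born from HF fed dams with those born from LF fed dams. No CpG of the 10 genes differed at FDR 5%, and 10 of 203 had an unadjusted p below 0.05, of which 4 were higher and 6 lower in offspring of HF fed dams. Over all CpGs 3.72% had such a p (3647 higher and 5262 lower) and 0% passed FDR 5%. The smallest p was at Acacb 114625969, in the 5′ UTR at the third start. Offspring of LF fed dams had values of 0% (lowest), 0% (median) and 5% (highest), and those born from HF fed dams 0%, 10% and 15.4%. The groups overlapped, but 7 of 9 offspring of HF fed dams were above the highest of the others. The means were 0.952% ± 1.92 and 8.43% ± 5.25, a difference of 7.48 points ± 1.86 (SE, n = 9 and 9, two-sided exact permutation p = 0.00263). The adjusted p over all CpGs was 0.822. The largest rise, 9.54 points ± 6.62, was at Acacb 114649722 in an intron (exact permutation p = 0.172). The largest fall, −8.95 points ± 4.20, was at Fasn 120681386 in a coding exon (exact permutation p = 0.0512), from a mean of 86.3% to 77.4%. None of the 10 gene means had an unadjusted p below 0.05, beside 4.72% of 15035 genes, and 0% of genes passed FDR 5%. The gene with the smallest p, Fasn, differed by −0.556 points (HF minus LF fed dams, 95% interval −1.46 to 0.351, permutation p = 0.213, adjusted p = 0.961). Its direction turned with pooled reads (1.97 points) and with CpGs read in all 40 mice (1.62 points).

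In animals fed LF, those born from HF fed dams were compared with those born from LF fed dams. Again no CpG of the genes passed FDR 5%. An unadjusted p below 0.05 was found at 8 of 200, with 5 higher and 3 lower. Over all CpGs the share was 3.99% (5759 higher and 3852 lower), and 0% passed FDR 5%. With limma on log2 read ratios the count was 22 of 229, beside 6.13% of all CpGs, and again none passed FDR 5%. The smallest p was at Acaca 83943309, in the 5′ UTR 135 bp downstream of the first start. The values were 0%, 1.67% and 9.52% (lowest, median and highest) in offspring of LF fed dams and 4.55%, 8.29% and 18.2% in those born from HF fed dams. Only 1 of the latter was above all of the former, and the groups overlapped. The difference was 5.03 points ± 1.79 (n = 10 and 9, exact permutation p = 0.0102, two-sided), with an adjusted p over all CpGs of 0.818. The largest rise, 7.70 points ± 3.15, was at Acaca 83943437 in the same UTR (8.67% to 16.4%, exact permutation p = 0.0232). The largest fall, −6.72 points ± 3.76, was at Acacb 114625949 (12.5% to 5.78%, exact permutation p = 0.0901). None of the gene means had an unadjusted p below 0.05, beside 5.34% of all genes. Acaca, with the smallest p, was higher by 0.540 points in offspring of HF fed dams (95% interval −0.293 to 1.37, permutation p = 0.189, adjusted p = 0.951). Without CpGs inside CCGG the difference was −0.0533 points.

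The post-weaning diet was compared within offspring of LF fed dams. No CpG of the genes passed FDR 5%, and 6 of 199 had an unadjusted p below 0.05, with 5 higher and 1 lower on HF. Over all CpGs 4.03% had such a p (5292 higher and 4317 lower), and 0.00084% (2 CpGs) passed FDR 5%. The count was 13 of 229 with limma on log2 read ratios (4.58% of all CpGs) and 14 of 199 with the quasi-binomial model of reads (4.75%). The smallest p was at Me1 86589505, in an intron 442 bp downstream of the start and inside CCGG. On LF the lowest, median and highest mice were at 0%, 0% and 6.25%, and on HF at 0%, 6.67% and 14.3%. On HF, 5 of 9 mice were above the highest on LF. The difference was 5.81 points ± 1.79 (n = 9 and 10, exact permutation p = 0.00563), and the adjusted p was 0.808. The largest rise, 12.9 points ± 8.55, was at Fasn 120681353 (62.9% to 75.8%, exact permutation p = 0.151). The largest fall, −14.1 points ± 6.30, was at Acacb 114649722 (71.3% to 57.2%, exact permutation p = 0.0418). Its p was above 0.05 with the exact Wilcoxon test (p = 0.0594), with the quasi-binomial model of reads (p = 0.0690, −11.8 points) and without the 3 mice of low coverage (p = 0.0757, −12.2 points). Of the gene means, 1 of 10 had an unadjusted p below 0.05, beside 5.38% of all genes, and none passed FDR 5% (0% of all genes). This was Fasn. Its values were 12.4%, 13.6% and 14.8% (lowest, median and highest) on LF and 12.3%, 14.6% and 15.9% on HF. The groups overlapped, although 4 of 10 mice on HF were above the highest on LF. Fasn was higher on HF by 0.903 points ± 0.424 (95% interval 0.0131 to 1.79, n = 10 and 10, permutation p = 0.0482), and its adjusted p was 0.924. The direction turned with reads pooled over the window (−1.61 points) and with CpGs read in all 40 mice (−0.328 points). The call at an unadjusted p of 0.05 was also lost without CpGs inside CCGG (0.587 points) and without the 3 mice of low coverage (0.736 points).

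Within offspring of HF fed dams, the post-weaning diet gave an unadjusted p below 0.05 at 9 of 201 CpGs, with 5 higher and 4 lower on HF, and none passed FDR 5%. The shares over all CpGs were 4.06% (3539 higher and 6310 lower on HF) and 0.00124% (3 CpGs). The smallest p was again at Acaca 83943309. Animals fed LF had values of 4.55%, 8.29% and 18.2%, and animals fed HF 0%, 1.92% and 7.84%. Of the mice fed HF, 6 of 10 were below the lowest fed LF. The difference was −5.41 points ± 1.63 (n = 10 and 10, permutation p = 0.00264), with an adjusted p of 0.820. With the quasi-binomial model of reads it was −4.26 points (p = 0.0613). This comparison shares the LF fed offspring of HF fed dams with that of maternal diet on LF, as the comparisons at Acacb 114649722 above share the HF fed offspring of LF fed dams, so these values only stand side by side. The largest rise, 7.67 points ± 3.54, was at Acacb 114625992 in the UTR at the third start (14.2% to 21.9%, exact permutation p = 0.0471). With the quasi-binomial model its p was 0.0609. The largest fall, −8.06 points ± 3.56, was at the intronic Srebf1 60014092 (96.0% to 88.0%, permutation p = 0.0185). No gene mean had an unadjusted p below 0.05, beside 5.87% of all genes. The smallest p was for Srebf1, with a difference of −0.551 points on HF (95% interval −1.31 to 0.208, permutation p = 0.143, adjusted p = 0.883). It was 0.464 points with pooled reads, −0.354 points without the 3 mice of low coverage and −0.0804 points with CpGs read in all 40 mice.

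**Figure D5:**
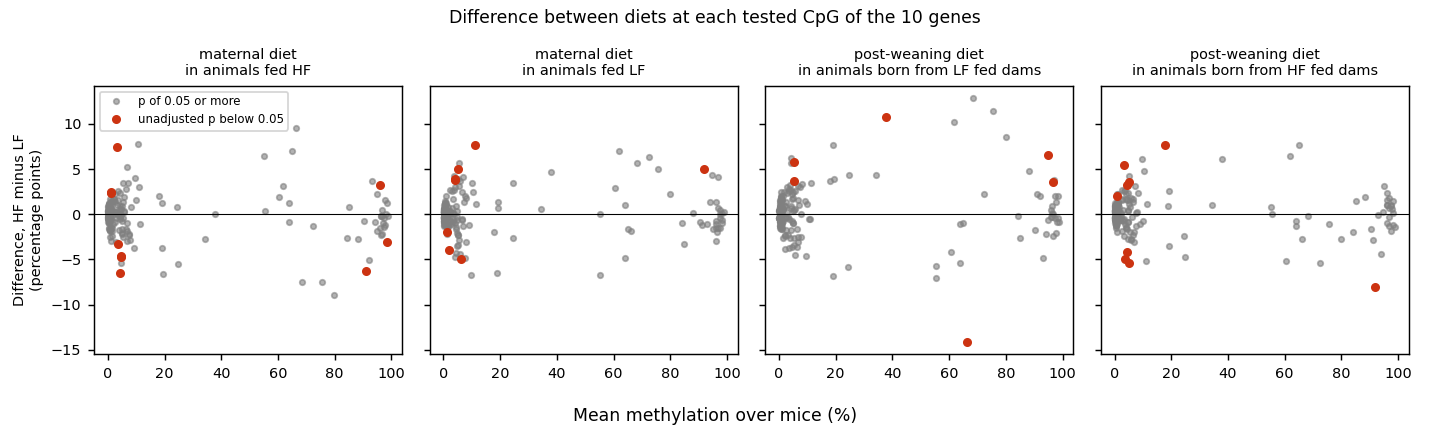
Difference in methylation (HF minus LF, percentage points) at each tested CpG of the 10 genes against its mean over mice (%), for the 4 pair-wise comparisons; red points had an unadjusted p below 0.05. The differences lay between −14.1 and 12.9 points, and none passed FDR 5%.

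The same held with the 40 mice in a single linear model. The maternal diet term had an unadjusted p below 0.05 at 9 of 219 CpGs (3.96% over all CpGs; 15 of 229 and 5.75% with limma on log2 read ratios), the post-weaning term at 7 (4.34%) and the interaction of both diets at 12 (4.18%). None passed FDR 5%, beside 0%, 0.00236% and 0% of all CpGs. None of the 10 gene means had an unadjusted p below 0.05 for the 3 terms, beside 4.73%, 5.93% and 5.28% of all genes, of which 0%, 0.00665% and 0% passed FDR 5%. The smallest p-values among the genes were for Acaca and the maternal term (0.469 points ± 0.253 higher in offspring of HF fed dams, p = 0.0714) and for Elovl6 and the post-weaning term (0.736 points ± 0.408 higher on HF, p = 0.0792). Of the 40 mice, the highest Elovl6 values, 9.02% and 8.90%, were those of 2 of the 3 mice of low coverage, both HF fed offspring of HF fed dams. Without those 3 mice the Elovl6 difference by post-weaning diet after HF fed dams fell from 0.897 to 0.213 points, and after LF fed dams it was 0.581 in place of 0.575 points. Without CpGs inside CCGG both directions turned in the pair-wise comparisons: Acaca differed by −0.0262 and −0.0533 points by maternal diet on HF and LF, and Elovl6 by −0.184 and −0.0670 points by post-weaning diet after LF and HF fed dams. Over the 4 pair-wise comparisons, the 95% intervals of the 10 gene means lay within −2.16 and 3.09 points, the interval reaching 3.09 being that of Acacb. Median differences over the CpGs tested were −0.108, 0.0471, 0.157 and 0.0419 points in the 10 genes and −0.151, 0.164, 0.0832 and −0.211 points over all CpGs, in the order of the comparisons above. These limits hold only for means over the CpGs tested. With reads pooled over the window the differences ran from −4.29 points (Acly, post-weaning diet after HF fed dams) to 1.97 points. With CpGs read in all 40 mice, Acacb differed by −2.22 points by maternal diet on LF.

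Other genes of these pathways were counted in the same way, from a list of 56 genes that covers the activation, elongation, desaturation, esterification and oxidation of fatty acids. Of these, 46 had a tested CpG and 42 a gene mean, and the median promoter methylation of the 37 with a promoter value was 2.02%, beside 1.89% for 7 of the 10 genes and 1.91% for all genes. None passed FDR 5% in the 4 comparisons. The counts with an unadjusted p below 0.05 were 1, 0, 1 and 2 of 42, beside the 4.72%, 5.34%, 5.38% and 5.87% of all genes. An unadjusted p below 0.05 was seen for Elovl5, a fatty acid elongase, in animals fed HF (−0.815 points by maternal diet). No gene of the list had one for maternal diet in animals fed LF. By post-weaning diet, Mlycd, which degrades malonyl-CoA, was higher by 1.23 points on HF in offspring of LF fed dams. In offspring of HF fed dams, Fads1, a desaturase, was higher by 1.47 points on HF and Acadvl, an acyl-CoA dehydrogenase of oxidation, had a difference of −3.9 points.

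The promoter sequences that RefSeq gives for the build GRCm38.p6 (300 bases around each start) were matched by symbol for 9 of the 10 genes, Scd1 being named only, with 13 promoters in all. They held 1 to 39 CpGs, beside a median of 7 over 32851 promoters, with the most in Fasn. The letters CCGG occurred in 10 of the 13 promoters, beside 52.8% of all promoters. CACGTG, a core of the E box that ChREBP and SREBP-1 can bind, occurred in 1 of the 13, a promoter of Mlxipl, beside 7.15% of all promoters, and TCACNCCAC, a form of the sterol response element, also in 1, of Mlxipl, beside 1.24%. Both strands were searched, and these letters say nothing about binding.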

How the data were processed

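The 10 genes and the gene lists were chosen with earlier results of these data known. RRBS was measured in livers of 40 mice, 10 per group, and groups were taken from the labels. The authors cut DNA with MspI, sequenced bisulfite-converted fragments and aligned them to mm9 with Bismark (version not given in the sources used here). They deposited, per CpG cytosine and mouse, a count of methylated reads and a count of all reads, without normalization and missing below 10 reads. The deposited fraction equals their ratio and was used only to check it. There were 0 columns of no mapped mouse.

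Percent methylation was computed from the counts. CpGs were placed by transcript starts of GENCODE M1 (Ensembl 65, mm9), within 5000 bp. CpGs with at least 10 reads in at least 36 mice were tested over the whole table (262317 CpGs; those without variation gave no p) by two-sided Student's t-test, as in the study's methods, with Benjamini-Hochberg adjustment. Gene means averaged the tested CpGs of a gene after centring each, for all 15037 genes with at least 3. A linear model gave the terms over 40 mice. Named CpGs and genes also had a two-sided permutation test (100000 resamples, exact where a group had fewer than 10 values). The methods were tested on simulated data, in which CpGs of intermediate level were changed by more than any difference seen at the 10 genes. This does not show whether small changes at weakly methylated CpGs would be found.

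The rule for named items was, per comparison, the CpG with the smallest p, the largest rise and the largest fall, and the gene with the smallest p or a p below 0.05; per gene, its highest and lowest CpG and the one nearest its start. Python 3.11.15, scipy 1.17.1, R 4.3.3 and limma 3.58.1 were used. Alternatives were other tests (Welch, Wilcoxon, limma, quasi-binomial with a dispersion of at least 1), coverage minimums, windows and summaries. A marker gene of the tissue check is not reported here.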

Additional observations from a re-analysis of the deposited data

Results flagged for a closer look

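Of 80 sets of values (each gene mean and each named CpG in each group), 5 held a mouse far from the rest of its group, where chance gives about 1 in 20. For the Acacb gene mean, 1 mouse born from an HF fed dam and fed LF stood at 67.1%, with the next at 63.3%. For the Cpt1a gene mean, 1 mouse born from an LF fed dam and fed LF stood at 4.34%, with the next at 2.18%. At Acaca 83943309, 1 mouse born from an LF fed dam and fed HF stood at 21.7% (next 10.5%), and 1 born from an HF fed dam and fed LF at 18.2% (next 9.30%). At Me1 86589505, 1 mouse born from an HF fed dam and fed LF stood at 20% (next 8.33%). No CpG or gene mean of the 10 genes had an interaction of both diets at FDR 5%.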

How the results depend on the processing

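No CpG and no gene mean of the 10 genes passed FDR 5% under any alternative, where the smallest adjusted p was 0.707. Counts at an unadjusted p below 0.05 moved. Of the 229 CpGs, limma on log2 read ratios gave 22 by maternal diet in animals fed LF, 13 by post-weaning diet in offspring of LF fed dams and 15 for the maternal term, beside 6.13%, 4.58% and 5.75% of all CpGs. The quasi-binomial model gave 14 for that post-weaning comparison (4.75% of all CpGs). At 20 reads or more only 1 CpG of these genes was left, so the counts, all 0, say nothing about the genes (3.66% to 18.8% of all CpGs). With CpGs read in all 40 mice (at most 31 CpGs of the genes), the counts were 1 and 1 for maternal diet on HF and LF (3.94% and 4.74% of all CpGs), 0 and 1 for post-weaning diet after LF and HF fed dams (5.10% and 4.20%), 1 and 2 for the maternal and post-weaning terms (4.26% and 4.89%) and 2 for the interaction (4.65%). With all 365 CpGs the post-weaning counts were 11 and 16 (3.88% and 3.97% of all CpGs), and 12 for the term (4.20%). In the 4 comparisons between a pair of groups, Welch's and the exact Wilcoxon test kept each count within 1.5 times; the terms were not run with them.

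For gene means, 1 gene (Srebf1) had an unadjusted p below 0.05 by maternal diet on HF in the window from 1000 bp before to 500 bp after a start (7 of the genes tested, 4.56% of all genes), and 1 (Mlxipl) by maternal diet on LF with CpGs read in all 40 mice (4 of the genes tested, 5.94% of all genes). The count for post-weaning diet after LF fed dams fell from 1 (Fasn) to 0 with pooled reads (5.17% of all genes), with CpGs read in all 40 mice (4.89%, 4 of the genes tested), without CpGs inside CCGG (4.87%) and without the 3 mice of low coverage (5.46%); the latter pair were chosen after seeing the data. That count stayed at 1 (Fasn) in the window from 1000 bp before to 500 bp after a start (7 of the genes tested, 5.195% of all genes). With limma on gene means it was also 1 (Fasn, 5.31% of all genes). With pooled reads the differences of Fasn reversed to 1.97 points by maternal diet on HF and −1.61 by post-weaning diet after LF fed dams, and that of Srebf1 to 0.464. With CpGs read in all 40 mice those of Fasn reversed to 1.62 and −0.328. Without CpGs inside CCGG the Acaca difference reversed to −0.0533. Over all 10 genes and 4 comparisons, 14 of 40 differences changed sign with pooled reads, 13 of 40 without CpGs inside CCGG and 7 of 16 with CpGs read in all 40 mice. Levels depend on the window: for example, with starts of protein-coding transcripts Srebf1 fell to 1.71% and Acacb to 49.1%. Without CpGs inside CCGG the means over the 40 mice were 5.50% for Srebf1, 6.06% for Fasn, 0.421% for Acaca, 63.5% for Acacb, 57.1% for Acly, 0.689% for Scd1, 0.242% for Elovl6, 1.04% for Me1, 0.400% for Cpt1a and 1.49% for Mlxipl; the Acacb mean moved by less than the spread between mice. No paired analysis was possible because the labels do not name litters.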
